A study of Mus musculus with 45 samples.

Results

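Toll-like receptors were followed across resting and polarized macrophages as 9 receptor genes (Tlr1, Tlr2, Tlr3, Tlr4, Tlr6, Tlr7, Tlr8, Tlr9 and Tlr13) and Cd14, which makes 10 genes. They were chosen by name and matched to the gene names of the deposited tables, in which all 10 were found among 29307 genes, and all 10 were among the 12905 genes that passed the low-count filter and were tested. RNA was sequenced from bone marrow-derived macrophages of C57BL/6N mice, 6 to 10 weeks old, that carried the Famin alleles p254I, p254V or p284R, engineered to match the human non-risk, risk and monogenic disease variants of FAMIN in that order. Marrow cells were grown for 6 days with 100 ng/mL M-CSF and then left unpolarized (M0) or polarized over 24 h. The M1 stimulus was IFN-γ at 50 ng/mL together with LPS at 20 ng/mL, and the M2 stimulus was IL-4 at 20 ng/mL. Each of the 9 groups held 5 libraries, 45 in all. Libraries that shared a genotype and a replicate number were taken as the cultures of the same mouse, giving 15 mice. None of these groups was labelled Famin+/+, and the paper states that C57BL/6 mice express the p254V form of Famin. The cells came from marrow cultures, not from tissue.

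Toll-like receptors recognize conserved microbial molecules and signal through the adaptor MyD88, through TRIF, or through both, to NF-κB and interferon regulatory factors. TLR4, with its co-receptor MD-2 and the LPS carrier CD14, and TLR2, in heterodimers with TLR1 or TLR6, act at the cell surface on bacterial lipids and lipoproteins. TLR3, TLR7, TLR8, TLR9 and TLR13 sense nucleic acids in endosomes, and the mouse also has TLR5, TLR11 and TLR12, which bind protein ligands. LPS, part of the M1 stimulus, is itself a ligand of TLR4.

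Gene coordinates are those of GENCODE on GRCm38. A pair of members are neighbors on chromosome 5. Tlr1 (ENSMUSG00000044827) spans chr5:64924679-64933563 and Tlr6 (ENSMUSG00000051498) spans chr5:64952031-64960097, both on the minus strand. Because reads were 50 bases long, every 50-base stretch of each transcript was compared with the transcripts of all other genes. Tlr1 and Tlr6 had 454 such stretches in common, and 15.4% of those of Tlr1 and 12.3% of those of Tlr6 occurred in another gene. Their values are therefore less certain than those of Tlr2, Tlr7, Tlr8, Tlr9, Tlr13 and Cd14, none of whose stretches occurred elsewhere. The longest run identical in both is shown because a read inside it cannot be assigned. It is 229 bases long, wholly coding, at chr5:64925537-64925765 in Tlr1 and chr5:64953828-64954056 in Tlr6, and is given on the coding strand.
Tlr1 and Tlr6 shared coding run: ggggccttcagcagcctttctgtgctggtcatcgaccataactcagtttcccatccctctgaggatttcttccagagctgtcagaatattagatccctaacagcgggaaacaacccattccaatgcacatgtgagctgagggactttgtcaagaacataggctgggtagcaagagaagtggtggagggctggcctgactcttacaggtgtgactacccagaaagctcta

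Promoter sequences of RefSeq (GRCm38.p6) were available for 7 receptor members as 9 windows, each the 250 bases before a transcription start. The windows of Tlr9, Tlr8 and the inner start of Tlr6 are shown because they hold no base of an annotated exon. Their genes also differed in response: Tlr9 and Tlr6 rose in M1 and fell in M2, and Tlr8 fell in both. Capitals mark a match to a searched motif.
Tlr9, chr9:106222348-106222597, plus strand: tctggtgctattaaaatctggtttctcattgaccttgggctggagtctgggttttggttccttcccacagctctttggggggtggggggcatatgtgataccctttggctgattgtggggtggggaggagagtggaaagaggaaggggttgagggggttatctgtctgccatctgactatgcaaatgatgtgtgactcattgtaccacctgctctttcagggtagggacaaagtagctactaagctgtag
Tlr8, chrX:167264330-167264579, minus strand: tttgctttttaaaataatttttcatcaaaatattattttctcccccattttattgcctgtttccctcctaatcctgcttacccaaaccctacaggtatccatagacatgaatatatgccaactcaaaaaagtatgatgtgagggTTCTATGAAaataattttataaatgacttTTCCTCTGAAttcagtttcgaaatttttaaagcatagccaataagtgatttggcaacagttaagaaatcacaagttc
Tlr6, chr5:64959167-64959416, minus strand: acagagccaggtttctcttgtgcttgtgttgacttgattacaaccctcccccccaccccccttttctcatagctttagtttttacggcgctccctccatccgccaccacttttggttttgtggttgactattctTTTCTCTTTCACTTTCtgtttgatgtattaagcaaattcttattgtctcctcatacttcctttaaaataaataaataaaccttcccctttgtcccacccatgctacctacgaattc

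The motifs, searched on both strands, were a κB motif (GGG, any 2 bases, TTTCC), a GAS motif (TTC, any 3 bases, GAA), a STAT6 motif (TTC, any 4 bases, GAA), an ISRE motif (GAAA, any 2 bases, GAAA) and the PU.1 motif GAGGAAGT. The GAS and STAT6 motifs share their outer letters but cannot start at the same base. In Tlr8 the capitals were a GAS match that began 106 bases before the start and a STAT6 match that began 77 bases before it. In Tlr6 they were a pair of overlapping ISRE matches on the other strand, and the Tlr9 window matched none of the 5 motifs. The other Tlr6 window, which spans the annotated gene start, also matched none of them. The bases after the inner Tlr6 start, and after either Tlr1 start, were not found in a GENCODE transcript of the gene. Over the 9 member windows, 1 held the κB motif (Tlr3), 2 the GAS motif, 1 the STAT6 motif, 1 the ISRE and 1 the PU.1 motif (Tlr1). Among 32851 RefSeq promoter windows of the same length, the shares with a match were 1.41%, 7.02%, 5.85%, 2.98% and 2.44%, in the same order.

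Libraries held between 17239009 and 43740283 counted reads (median 27553642), and levels are given as CPM, the reads of a gene per 1000000 reads of its library, scaled by TMM. The lowest value of any member in any library was 6.13 CPM, so every member was counted in every library. Markers of the labelled states were summed in each library. The M1 markers Nos2, Cxcl9 and Il12b lay between 0.166 and 1.6 CPM in M0 and between 982 and 5421 CPM in M1. In M2 they lay between 0.153 and 1.61 CPM, and Il12b never exceeded 1 CPM in any state. Summed M2 markers (Arg1, Retnla, Chil3 and Mrc1) lay between 644 and 913 CPM in M0 and between 4434 and 14155 CPM in M2. In M1 they lay between 71.6 and 362 CPM. There Retnla reached 49.1 CPM (median 0.0396) and Arg1 reached 40.8 CPM (median 0.653). The 7 macrophage markers summed to 19546 to 33188 CPM in M0, 11223 to 15065 CPM in M1 and 9583 to 13830 CPM in M2. Lyz2 averaged 17018, 5980 and 5318 CPM in that order and was the largest part of each sum. Adgre1, Csf1r and Cd68 also averaged lower in both polarized states. Fcgr1 averaged 405, 1210 and 53.1 CPM, Mertk 192, 205 and 74.4 CPM, and Itgam 304, 160 and 362 CPM, so the markers did not move together. Of the other cells a marrow culture could hold, the B cell markers Cd79a and Ms4a1, the T cell markers Cd3e, Cd3g and Trac, and the plasmacytoid dendritic cell markers Siglech, Ccr9 and Klk1 never exceeded 1 CPM. Other genes of those lists were present and moved with polarization: Cd79b averaged 8.81 CPM in M0, 6.87 CPM in M1 and 3.07 CPM in M2, and Tcf4 averaged 99, 58.8 and 51.1 CPM, both called lower in M1 and in M2. Conventional dendritic cell markers summed to at most 12.8 CPM, with Flt3 and Cd209a never over 1 CPM, Xcr1 at an average of 0.024, 8.31 and 0.0177 CPM in M0, M1 and M2, and Zbtb46 at 0.619, 0.316 and 8.09 CPM. Neutrophil markers summed to 12.7 to 196 CPM, with medians of 49.9, 44.3 and 23.2 CPM in M0, M1 and M2. Ly6g and Elane never exceeded 1 CPM and Mpo reached 1.81 CPM. S100a8 averaged 25.6, 16.7 and 9.81 CPM and S100a9 47.1, 30.7 and 18.5 CPM. Fibroblast markers summed to 6.7 to 89 CPM, with medians of 34.3, 11.5 and 17.8 CPM, so both sums were highest in M0. The part of any of these markers' cells in the member levels was not tested. In such bulk samples fewer cells of a type and less RNA per cell cannot be told apart.

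Levels of different members were compared only per length, as CPM per kb of exon. In M0 macrophages Cd14 was the most abundant member at a mean of 245 CPM per kb, followed by Tlr13 at 153, Tlr8 at 107 and Tlr7 at 56. Tlr4, Tlr1 and Tlr2 followed at 28.6, 25.4 and 20.7 CPM per kb, and Tlr9, Tlr6 and Tlr3 came last at 12.4, 9.36 and 4.56. Among the receptors, those for nucleic acids led in resting cells, apart from Tlr9 and Tlr3. In M1 the leading members were Tlr13 at 136, Tlr9 at 98.2 and Tlr8 at 64.1 CPM per kb, with Cd14 next at 42. In M2 they were Tlr8 at 80.5 and Tlr13 at 72, which overlapped within their SDs, and Tlr9 was last at 2.37 CPM per kb. Tlr9 therefore stood eighth, second and last of the 10 in M0, M1 and M2.

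**Figure D1:**
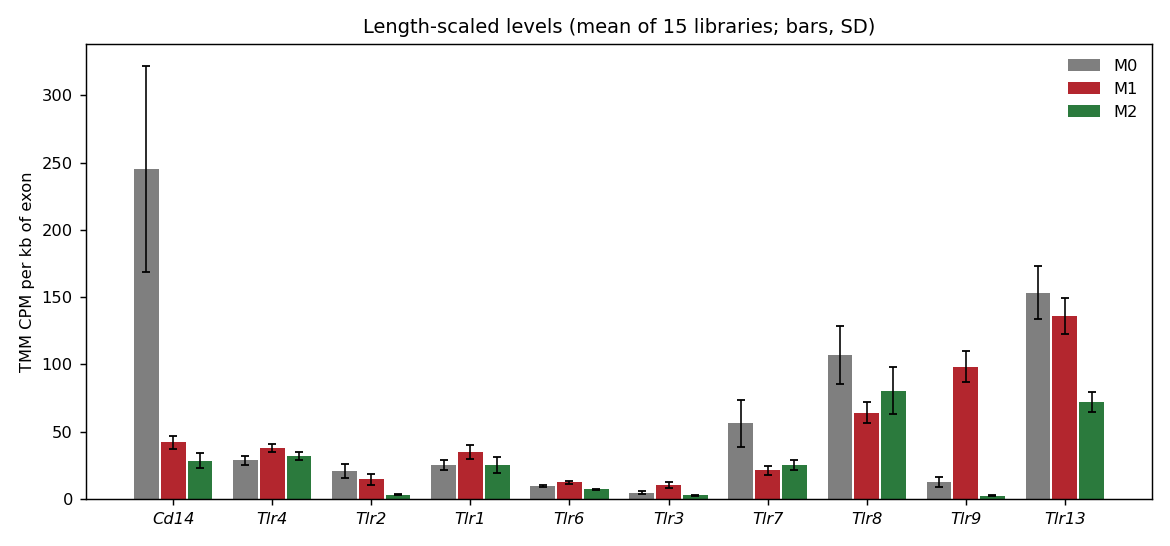
Mean level of each member in CPM per kb of exon (y axis) in M0, M1 and M2 (15 libraries each, gray, red and green bars); error bars are SDs. Cd14 is the tallest bar in M0 at 245 CPM per kb, and Tlr9 is tall only in M1, at 98.2.

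The 5 members that sense nucleic acids in endosomes summed to 333 ± 40.4 CPM per kb in M0, 330 ± 28.5 in M1 and 183 ± 24.4 in M2 (SD, n = 15). Tlr5, Tlr11 and Tlr12 were not in these sums, although Tlr11 and Tlr12 averaged 37.0 and 12.3 CPM in M1. The 4 surface receptors summed to 84.1 ± 6.83, 99.4 ± 11.2 and 67.1 ± 6.94 CPM per kb. Within the receptor members alone, the 5 endosomal members held 79.8% ± 1.23 of CPM per kb in M0, 76.8% ± 1.85 in M1 and 73.1% ± 0.976 in M2. This share ranged from 77.9% to 82.2% in M0 and from 71.1% to 74.7% in M2, so those ranges did not overlap. In M1 it ranged from 72.8% to 79% and overlapped with both. Tlr11 and Tlr12, seen mainly in M1, were left out of the share. In M1 the total of those 5 members was close to that of M0 while its makeup differed, since Tlr9 and Tlr3 were higher and Tlr7, Tlr8 and Tlr13 lower.

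The question of how polarization altered receptor expression was addressed with M1 and M2 against M0, averaged over genotypes. Both comparisons share the M0 libraries, so M1 was also set directly against M2. In M1, 5 members rose (Tlr1, Tlr3, Tlr4, Tlr6 and Tlr9) and 5 fell (Tlr2, Tlr7, Tlr8, Tlr13 and Cd14). These 10 calls of 10 stood against 77.3% of all genes tested, so that a call was by itself not unusual (37% of genes were called higher and 40.3% lower). In M2, 8 members fell, Tlr4 rose and Tlr1 was not called, 9 of 10 against 76.4% of all genes (36.8% higher and 39.6% lower). On the log2 scale the members had a median change of -0.90 in M2 and 0.11 in M1, against -0.03 in either comparison over all genes tested. Libraries did not overlap between M1 and M0 for 3 members (28.6% of all genes), nor between M2 and M0 for 5 (23.4% of all genes).

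**Figure D2:**
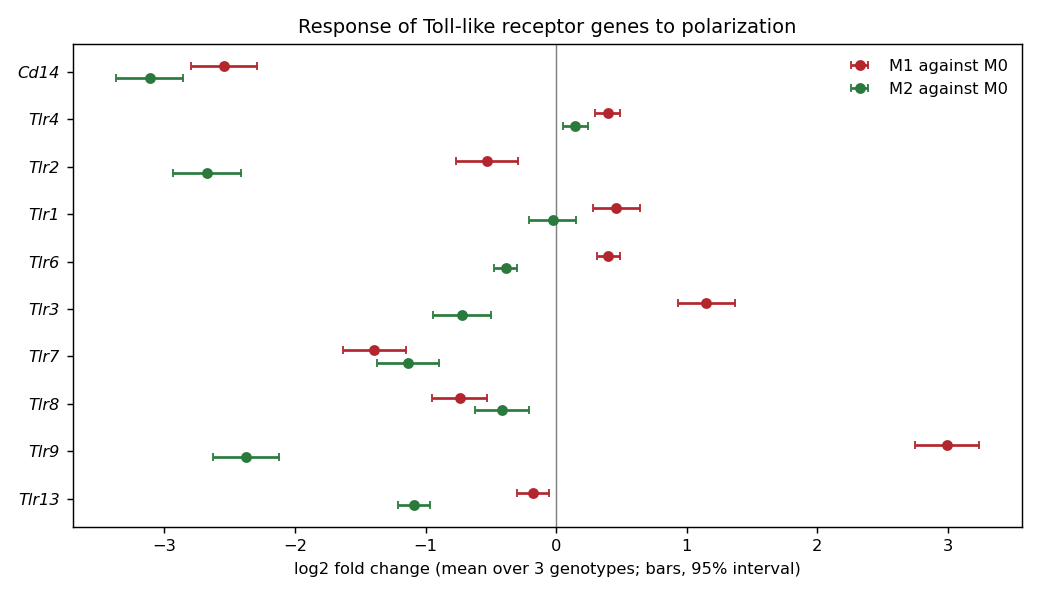
The log2 fold change of each member (x axis), averaged over the genotypes, for M1 against M0 (red) and M2 against M0 (green); bars are 95% intervals of the edgeR fit. Tlr9 lies at 2.99 in M1 and -2.38 in M2, whereas Cd14 lies at -2.55 and -3.11.

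Tlr9 (ENSMUSG00000045322, chr9:106222598-106226883, plus strand), the receptor for unmethylated CpG DNA, had the largest rise among the members. It ranged over 22.4, 47.3 and 73.2 CPM in M0 (lowest, median and highest of 15 libraries), 270, 343 and 403 CPM in M1, and 6.13, 8.07 and 11.9 CPM in M2. The 3 states did not overlap in any library. Tlr9 was 7.97-fold higher in M1 than in M0 (log2 fold change 2.99, SE 0.12, edgeR adjusted p = 5.7e-24), and the rise within a mouse lay between 4.23-fold and 15.4-fold. It was 5.20-fold lower in M2 than in M0 (log2 fold change -2.38, SE 0.13, edgeR adjusted p = 7.4e-20), lower in 15 of 15 mice. Between M1 and M2 the difference was 41.5-fold, and 25.9-fold to 56.6-fold within a mouse.

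Tlr3 (ENSMUSG00000031639, chr8:45395665-45411080, minus strand), the receptor for double-stranded RNA, also rose in M1 and fell in M2, on a smaller scale. It is overlapped on the opposite strand by Gm45542, and since the sources used here do not say whether counting used the strand, some of its reads could belong to that gene. Its lowest, median and highest levels were 18.5, 22.3 and 42.9 CPM in M0, 31.1, 52.7 and 72.2 CPM in M1, and 10.1, 14.5 and 21.6 CPM in M2. The mouse p254I replicate 4 gave the highest M0 and the highest M2 library, and M0 overlapped with M1 and with M2 through these libraries alone. M1 and M2 did not overlap. The level was 2.22-fold higher in M1 (log2 fold change 1.15, SE 0.11, edgeR adjusted p = 1.6e-12), in 15 of 15 mice. It was 1.64-fold lower in M2 (log2 fold change -0.72, SE 0.11, edgeR adjusted p = 2.5e-07), again in 15 of 15 mice.

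Tlr7 (ENSMUSG00000044583, chrX:167304929-167330558, minus strand), a receptor for single-stranded RNA, was highest in unpolarized cells. It ranged over 125, 214 and 329 CPM in M0, 54.2, 88.1 and 102 CPM in M1, and 80.3, 100 and 138 CPM in M2. Every M1 library was below every M0 library. The fall was 2.63-fold in M1 (log2 fold change -1.39, SE 0.12, edgeR adjusted p = 1.2e-13) and 2.20-fold in M2 (log2 fold change -1.13, SE 0.12, edgeR adjusted p = 3.7e-11). M1 was 1.2-fold below M2 (log2 fold change -0.26, SE 0.12, edgeR adjusted p = 0.043). That call was lost without p254I replicate 1 or 4, p254V replicate 1 or 2, or p284R replicate 1 or 5, with adjusted p from 0.057 to 0.080, and with no low-count filter (0.081).

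Tlr8 (ENSMUSG00000040522, chrX:167242696-167264329, minus strand), the closest relative of Tlr7 and its neighbor on the X chromosome, followed the same order. It ranged over 256, 369 and 493 CPM in M0, 173, 232 and 275 CPM in M1, and 169, 316 and 380 CPM in M2. The 3 ranges overlapped. Tlr8 was 1.67-fold lower in M1 (log2 fold change -0.74, SE 0.10, edgeR adjusted p = 2.8e-08), in 15 of 15 mice, and 1.33-fold lower in M2 (log2 fold change -0.41, SE 0.10, edgeR adjusted p = 0.00042), in 12 of 15 mice.

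Tlr13 (ENSMUSG00000033777, chrX:106143204-106160493, plus strand), a sensor of bacterial ribosomal RNA, changed little in M1 and fell in M2. It ranged over 486, 669 and 844 CPM in M0, 460, 588 and 676 CPM in M1, and 274, 306 and 406 CPM in M2. M2 libraries lay below all others, whereas M0 and M1 overlapped widely. The fall in M2 was 2.13-fold (log2 fold change -1.09, SE 0.06, edgeR adjusted p = 3.8e-19) and held in 15 of 15 mice. In M1 it was 1.13-fold (log2 fold change -0.18, SE 0.06, edgeR adjusted p = 0.0087) in 13 of 15 mice, and this call was lost without p284R replicate 5 (adjusted p = 0.055).

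**Figure D3:**
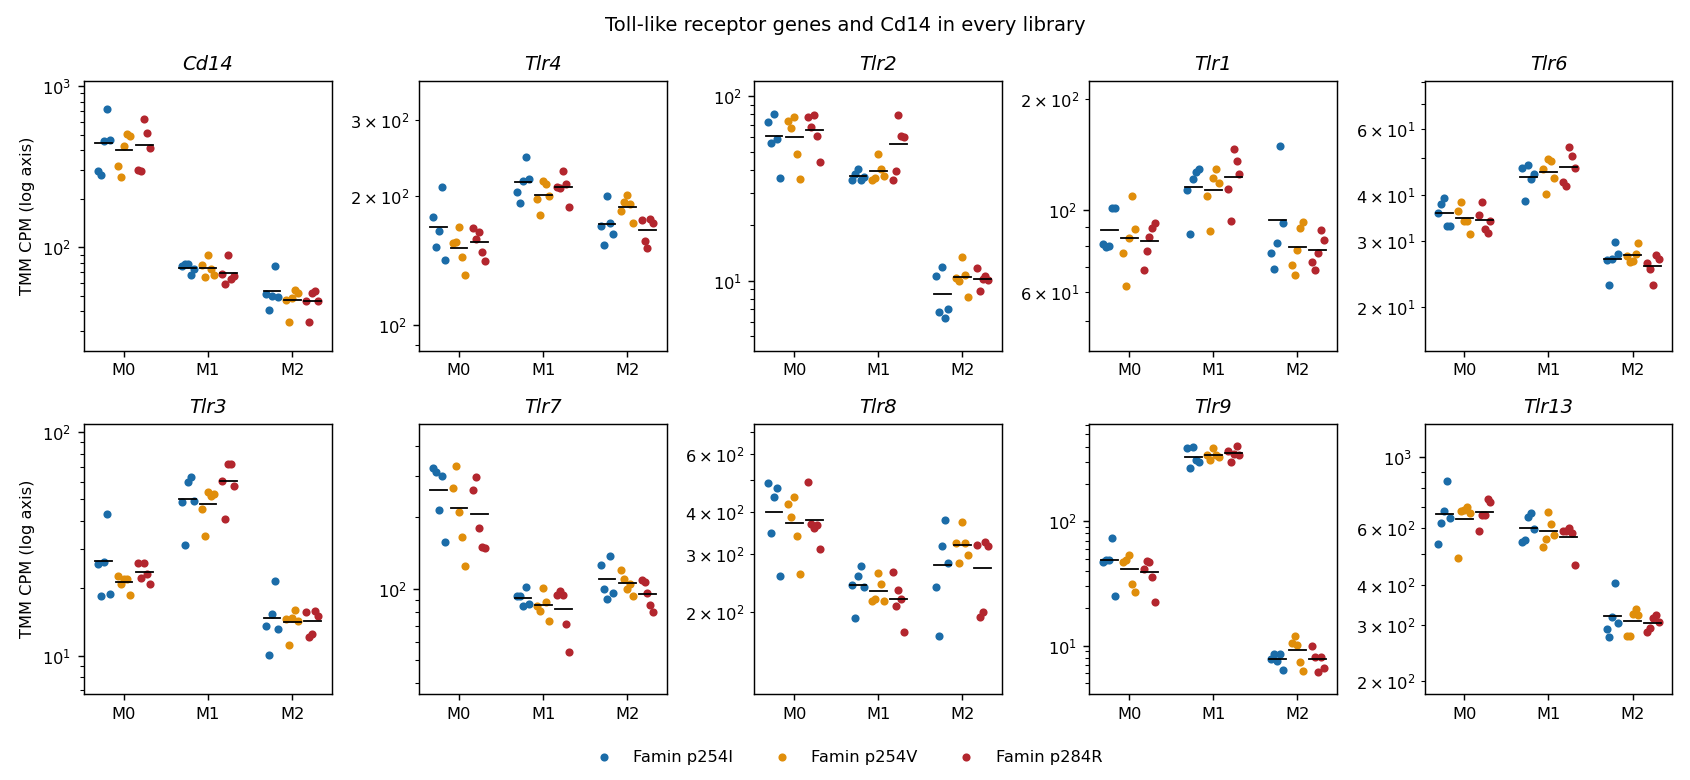
TMM CPM (y axis, log scale with a range of its own in each panel) of the 10 members in every library, grouped by M0, M1 and M2 on the x axis and colored by Famin genotype; black bars are means of 5 libraries. Tlr9 separates into 3 bands, at 22.4 to 73.2, 270 to 403 and 6.13 to 11.9 CPM, and genotypes mostly intermingle within each polarization. In the Tlr2 panel, p284R replicates 3, 4 and 5 (78.8, 61.1 and 60 CPM) lie above all other M1 libraries.

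Among the surface receptors, Tlr2 (ENSMUSG00000027995, chr3:83836272-83841767, minus strand), which senses lipoproteins, was the most responsive. Its lowest, median and highest levels were 35.7, 66.9 and 80.5 CPM in M0, 35.1, 37.8 and 78.8 CPM in M1, and 6.28, 10.2 and 13.4 CPM in M2. All M2 libraries lay below all M0 and M1 libraries. Tlr2 was 6.39-fold lower in M2 than in M0 (log2 fold change -2.68, SE 0.13, edgeR adjusted p = 3.7e-21), in 15 of 15 mice. In M1 it was 1.44-fold lower (log2 fold change -0.53, SE 0.12, edgeR adjusted p = 1e-04), with 11 mice lower and 4 higher.

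The partners of Tlr2 moved less. Tlr1 ranged over 62.4, 84.2 and 109 CPM in M0, 86.3, 121 and 146 CPM in M1, and 66.7, 78.1 and 149 CPM in M2. The highest M2 library was p254I replicate 4, and the next was p254V replicate 5 at 92.9 CPM. Tlr1 was higher in M1 than in M0 in 15 of 15 mice by 1.38-fold (log2 fold change 0.46, SE 0.09, edgeR adjusted p = 1.4e-05). In M2 its log2 fold change was -0.03 (SE 0.09, edgeR adjusted p = 0.79, 95% interval -0.21 to 0.15), so changes beyond that interval were not detected. Tlr6 ranged over 31.3, 33.9 and 39.2 CPM in M0, 38.4, 46.7 and 53.7 CPM in M1, and 22.9, 26.9 and 29.9 CPM in M2. It had the narrowest spread of the members in M0 (coefficient of variation 7.45%), and its M2 libraries lay below every other library. Tlr6 rose 1.32-fold in M1 (log2 fold change 0.40, SE 0.04, edgeR adjusted p = 7.2e-11) and fell 1.31-fold in M2 (log2 fold change -0.38, SE 0.04, edgeR adjusted p = 2.9e-10).

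Tlr4 (ENSMUSG00000039005, chr4:66827584-66930284, plus strand), the receptor of the LPS complex, was higher in both polarized states. It ranged over 131, 156 and 209 CPM in M0, 180, 209 and 246 CPM in M1, and 151, 173 and 201 CPM in M2. The ranges overlapped, although M1 was above M0 in 15 of 15 mice. The rise was 1.31-fold in M1 (log2 fold change 0.39, SE 0.05, edgeR adjusted p = 9.3e-10) and 1.11-fold in M2 (log2 fold change 0.15, SE 0.05, edgeR adjusted p = 0.0057), the latter in 11 of 15 mice.

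Cd14 (ENSMUSG00000051439, chr18:36725067-36726798, minus strand), which delivers LPS to TLR4, moved the other way and had the largest fall among the members. It ranged over 274, 424 and 716 CPM in M0, 59.1, 72.9 and 89.2 CPM in M1, and 34.2, 49.4 and 76.6 CPM in M2. Every polarized library was below every M0 library. Cd14 was 5.84-fold lower in M1 (log2 fold change -2.55, SE 0.12, edgeR adjusted p = 2.8e-21) and 8.66-fold lower in M2 (log2 fold change -3.11, SE 0.13, edgeR adjusted p = 2.6e-23). Within a mouse the fall was 3.60-fold to 10.7-fold in M1 and 5.75-fold to 11.9-fold in M2.

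Set directly against each other, M1 and M2 differed for 10 of 10 members (79.1% of all genes tested), with 8 higher in M1 and with Tlr7 and Tlr8 lower. After Tlr9, the widest gaps were those of Tlr2 (4.43-fold; log2 fold change 2.15, SE 0.13, edgeR adjusted p = 9.3e-19) and Tlr3 (3.65-fold; log2 fold change 1.87, SE 0.11, edgeR adjusted p = 1.1e-18). Tlr13 and Tlr6 were 1.89-fold and 1.72-fold higher in M1. Libraries of M1 and M2 did not overlap for these 5 members, against 35.7% of all genes. Cd14, Tlr1 and Tlr4 were 1.48-fold, 1.4-fold and 1.19-fold higher in M1 and overlapped.

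The 3 remaining mouse receptors averaged at most 1.99 CPM outside M1. Tlr11, which binds profilin of protozoan parasites, averaged 0.463 CPM in M0, 37.0 CPM in M1 (30.9 to 44.8) and 1.41 CPM in M2 (log2 fold change in M1 6.30, SE 0.14, edgeR adjusted p = 1.2e-32). Its partner Tlr12 averaged 0.0299, 12.3 (8.98 to 15.5) and 0.023 CPM. No fold is given for Tlr12, because its M0 and M2 libraries held few or no reads. Tlr5, the flagellin receptor, averaged 1.99 CPM in M0, 0.715 CPM in M1 and 0.0563 CPM in M2.

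For each member the genes most like it over the 45 libraries were listed, as a description; the libraries share their polarization states, which set much of each correlation. The genes most like Tlr9 were Aif1 (Pearson r of log2 CPM = 0.9951) and the chemokine gene Cxcl10 (r = 0.9879). For Tlr3 they were Rnf135 (r = 0.9837) and Slc28a2 (r = 0.9819), for Tlr2 Neurl3 (r = 0.9734) and the TGF-β receptor gene Tgfbr2 (r = 0.9614), and for Cd14 B4galt6 (r = 0.9755) and the C5a receptor gene C5ar1 (r = 0.969). For Tlr13 they were Arrb2 (r = 0.9771) and Retreg1 (r = 0.9741), and for Tlr6 Fez2 (r = 0.9656) and Ctsh (r = 0.9601). The likest genes of Tlr7 were Gapvd1 and Gdi2 (r = 0.9307 and 0.929), of Tlr8 Nbr1 and Gnpda1 (0.9056 and 0.8906), of Tlr1 BC037034 and Ascc2 (0.8832 and 0.8826), and of Tlr4 Sdccag8 and Atp2c1 (0.8788 and 0.8745). Among the members themselves Tlr6 and Tlr9 were most alike (r = 0.947), followed by Tlr3 with Tlr9 (r = 0.945) and with Tlr6 (r = 0.934). Next came Tlr2 with Tlr13 (r = 0.889), Tlr1 with Tlr3 (r = 0.777), and Tlr7 with Tlr8 (r = 0.774) and Cd14 (r = 0.767).

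The rest of the pathway was read from a list of 44 genes, all of which were tested. In M1, 30 of the 44 were called, beside 77.3% of all genes tested: 17 rose and 13 fell, and the median change was 0.00 on the log2 scale. In M2, 32 of the 44 were called, beside 76.4% of all genes tested: 11 rose and 21 fell, with a median of -0.11. Of the 18 adaptors and kinases, 8 rose and 1 fell in M1 (median 0.02), and 1 rose and 9 fell in M2 (median -0.14). The 17 trafficking factors, proteases and co-receptors were divided, with 6 up and 7 down in M1 and 6 up and 9 down in M2. Of the 9 inhibitors, 3 rose and 5 fell in M1, and 4 rose and 3 fell in M2.

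**Figure D4:**
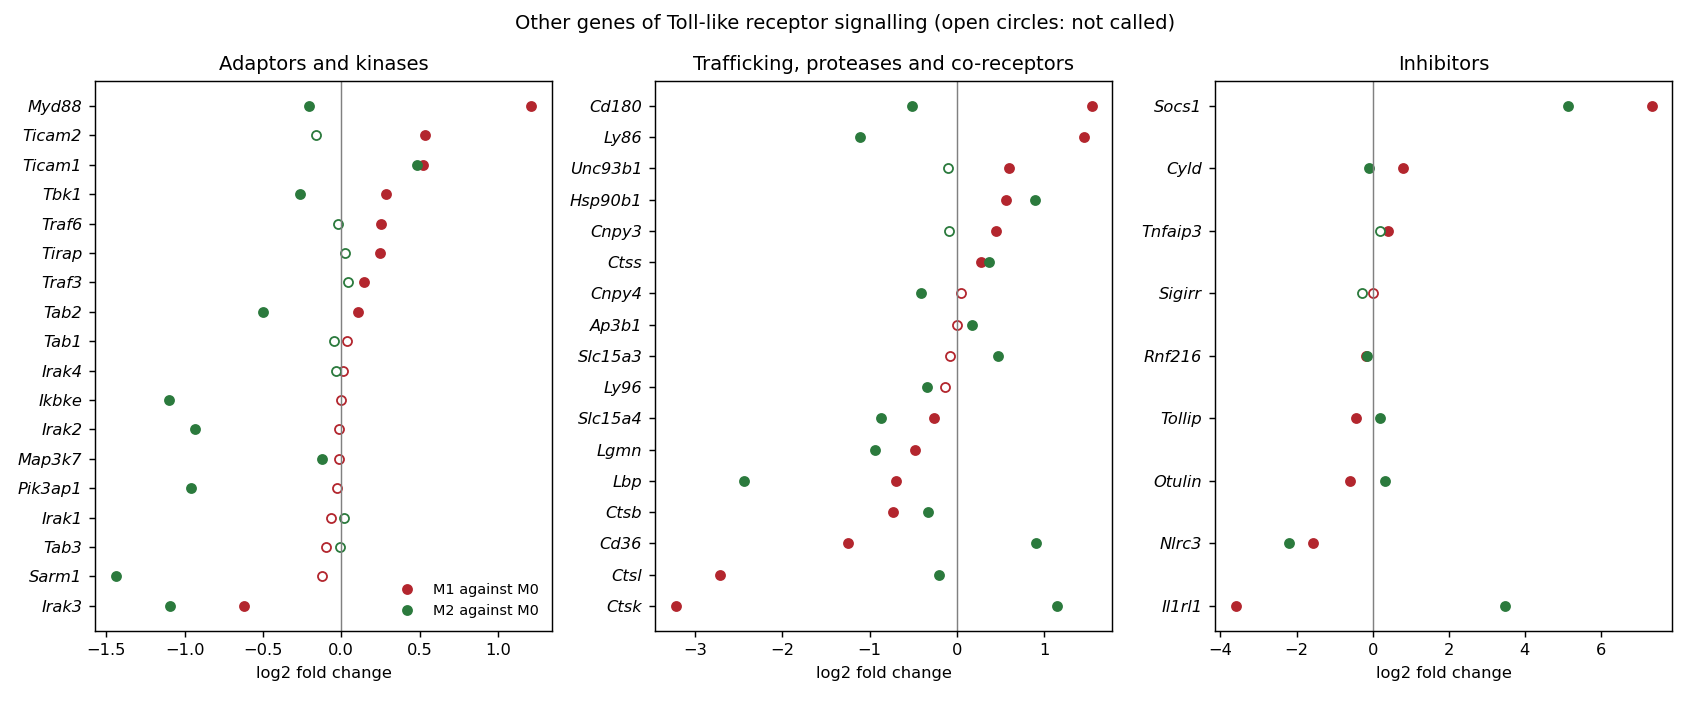
The log2 fold change (x axis, a scale of its own in each panel) of the 44 other pathway genes for M1 against M0 (red) and M2 against M0 (green), in panels of adaptors and kinases, of trafficking factors, proteases and co-receptors, and of inhibitors; open circles were not called. Socs1 lies farthest right in both comparisons, at 7.33 and 5.15.

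Named by the size of their change, the strongest pathway rises in M1 were those of Socs1, Cd180 and Ly86. Socs1, a feedback inhibitor of cytokine signaling, averaged 1.10 CPM in M0, 178 CPM in M1 and 39.0 CPM in M2 (log2 fold change 7.33, SE 0.12, in M1 and 5.15, SE 0.11, in M2). Cd180, a TLR-like surface protein, averaged 438, 1276 and 307 CPM, and its partner Ly86 averaged 252, 694 and 117 CPM. Both were called higher in M1 (log2 fold change 1.55, SE 0.07, and 1.46, SE 0.10).

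The strongest falls in M1 were those of Il1rl1, Ctsk and Ctsl. Il1rl1, which encodes the IL-33 receptor, averaged 13.1 CPM in M0, 1.21 CPM in M1 and 147 CPM in M2, and was thus lower in M1 and higher in M2 (log2 fold change -3.60, SE 0.20, and 3.48, SE 0.16). The cathepsin gene Ctsk averaged 13.1, 1.41 and 29.0 CPM, with the same directions (log2 fold change -3.22, SE 0.19, and 1.15, SE 0.15). Ctsl, which encodes a protease that cleaves endosomal receptors, averaged 3292, 499 and 2868 CPM (log2 fold change -2.72, SE 0.08, in M1). In M2 the strongest falls were those of Lbp, Nlrc3 and Sarm1 (log2 fold change -2.44, -2.19 and -1.44), of which Lbp and Sarm1 averaged at most 1.04 and 0.79 CPM in any state. Between M1 and M2, Ly86, Socs1 and Cd180 had the largest differences toward M1 (log2 fold change 2.57, 2.19 and 2.06), and Il1rl1, Ctsk and Ctsl toward M2 (-7.08, -4.37 and -2.52).

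The genes nearest to the receptors in the pathway were named after their values had been seen. The shared adaptor gene Myd88 averaged 104 CPM in M0, 240 CPM in M1 and 89.9 CPM in M2 (log2 fold change in M1 1.21, SE 0.06, edgeR adjusted p = 7.7e-22). Unc93b1, whose product carries nucleic acid receptors to endosomes, averaged 1024, 1547 and 958 CPM (log2 fold change in M1 0.59, SE 0.05, edgeR adjusted p = 6.5e-13). Ly96, which encodes MD-2, averaged 22.3, 20.2 and 17.5 CPM and was not called in M1 (log2 fold change -0.14, SE 0.07, edgeR adjusted p = 0.057). It was lower in M2 (log2 fold change -0.34, SE 0.07, edgeR adjusted p = 2.4e-05).

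Famin genotypes were then compared, which asks whether the variant altered receptor expression. None of the 10 members was called in any of 13 comparisons by edgeR: 3 averaged over polarizations, 6 within a polarization and 4 interactions. Of these 130 values, 4 had an unadjusted p under 0.05, and DESeq2 and limma-voom also called 0. The background was as sparse. Of all genes, 0.0155% were called for p284R and 0.0155% for p254V against p254I on average, and 0% for p284R against p254V. Within M1, 0.263% were called for p284R against p254I (34 genes, or 64 with the replicate block; 0.209% higher and 0.0542% lower), within M2 0.00775%, and in the other 4 comparisons within a polarization and all 4 interactions 0%.

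Averaged differences of the members lay between -0.23 and 0.32 on the log2 scale, and their 95% intervals between -0.47 and 0.56. The averaged intervals come from a fit that took the cultures of a mouse as unrelated. Within a polarization the differences lay between -0.34 and 0.57, with intervals from -0.74 to 0.98. Differences of that size were therefore not excluded by the intervals. With the mouse as the unit, 30 two-sided exact permutation tests of 5 mice against 5 gave a lowest p of 0.079, where the smallest possible p was 0.0079. These tests did not pair mice by replicate number, so the spread between replicate numbers stayed in the comparison.

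**Figure D5:**
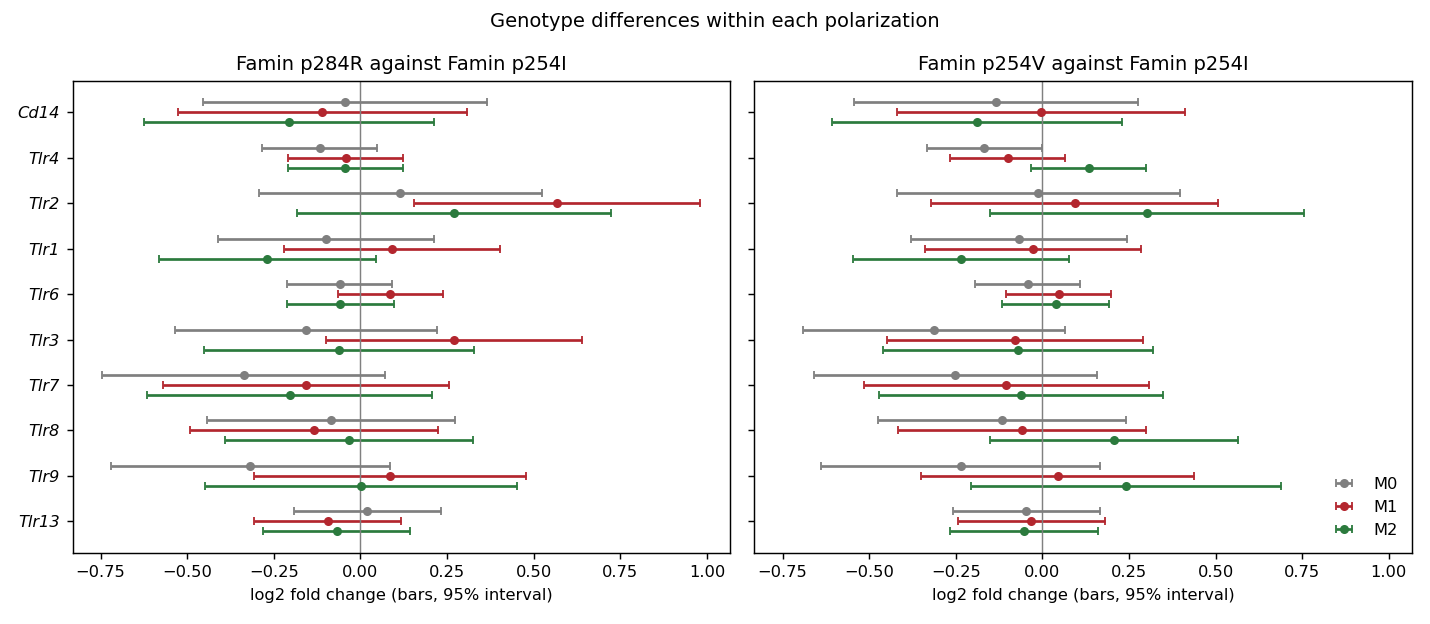
The log2 fold change (x axis) of each member for p284R (left) and p254V (right) against p254I within M0 (gray), M1 (red) and M2 (green); bars are unadjusted 95% intervals of the edgeR fit. Tlr2 within M1 lies farthest from 0 in the left panel, at 0.57.

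Among the genotype comparisons of the members, Tlr2 in M1 macrophages had the lowest unadjusted p and was not called. In p254I mice its levels were 35.3, 37.8, 40.1, 35.3 and 36.6 CPM in replicates 1 to 5. In p254V mice they were 35.1, 36.2, 48.9, 40.2 and 37.0 CPM. In p284R mice they were 35.3, 39.1, 78.8, 61.1 and 60.0 CPM. Replicates 3, 4 and 5 of p284R were above all 12 other M1 libraries, while replicates 1 and 2 lay among them. Relative to p254I the log2 fold change was 0.57 (SE 0.20, 95% interval 0.15 to 0.98, unadjusted p = 0.0085, edgeR adjusted p = 0.44), and 0.55 (SE 0.16, edgeR adjusted p = 0.14) with the replicate block. Leaving out a mouse gave values from 0.40 (without p284R replicate 3) to 0.69 (without p284R replicate 1), none of them called.

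Tlr3 in M1 was picked out after its values were seen. Its levels were 48.6, 31.1, 59.6, 62.7 and 49.2 CPM in p254I replicates 1 to 5, and 45.3, 34.1, 54.1, 51.6 and 52.7 CPM in p254V. In p284R they were 60.5, 41.0, 72.2, 71.8 and 57.1 CPM. Each p284R library was above both other genotypes of its replicate number, by 1.15- to 1.32-fold over p254I, while the ranges of the genotypes overlapped. Relative to p254I the log2 fold change of Tlr3 was 0.27 (SE 0.18, edgeR adjusted p = 0.91), and 0.28 (SE 0.12, edgeR adjusted p = 0.40) with the replicate block, so it was not called. It was the 1 member of 10 that moved the same way in all 5 replicate numbers in that comparison, as did 12.3% of all genes tested. Other members did so elsewhere. Against p254I, p284R was lower in all 5 for Tlr7 and Tlr9 in M0 (4.2% of all genes moved 1 way) and for Tlr1 in M2 (4.23%). Against p254V in M1, p284R was higher in all 5 for Tlr1, Tlr2 and Tlr3 (16.1%).

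The other low unadjusted values belonged to Tlr2 averaged over polarizations and to Tlr4. For Tlr2 the averaged difference of p284R from p254I was 0.32 on the log2 scale (SE 0.12, unadjusted p = 0.013, edgeR adjusted p = 0.91). With the mouse as the unit and without pairing by replicate number, the Tlr2 difference had an exact permutation p of 0.079. Tlr4 in M0 measured 178, 152, 166, 209 and 142 CPM in p254I and 155, 156, 169, 144 and 131 CPM in p254V (log2 fold change -0.17, SE 0.08, unadjusted p = 0.048, edgeR adjusted p = 1). In M2 it measured 170, 154, 200, 173 and 163 CPM and 184, 193, 201, 191 and 173 CPM, in the same order of genotypes. The interaction of that difference with M2 was 0.30 (SE 0.12, unadjusted p = 0.013, edgeR adjusted p = 1). Of the 44 pathway genes, 1 was called in a genotype comparison: Tnfaip3, an inhibitor of NF-κB signaling named after its value was seen, was above p254I in p284R mice within M1 (log2 fold change 0.77, SE 0.18, edgeR adjusted p = 0.034). The number of genes called in that comparison ranged from 0 (without p284R replicate 5) to 109 (without p284R replicate 2).

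Replicate number accounted for more of the spread than genotype did. Of the sum of squares of log2 CPM within M0, the replicate number, which holds 28.6% of the degrees of freedom, took between 43.4% (Tlr4) and 92.2% (Tlr2), and genotype, which holds 14.3%, took between 0.804% (Cd14) and 17.6% (Tlr4). The replicate number took the larger share for 10 of 10 members in M0 and for 9 of 10 in both M1 and M2. The exceptions were Tlr2 in M1 (35.9% against 39.8% for genotype) and Tlr4 in M2 (14.5% against 37.1%).

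Cd14 in M0 was an example. The 3 genotypes of replicate 1 lay between 296 and 321 CPM and those of replicate 2 between 274 and 299 CPM, whereas replicates 3, 4 and 5 lay between 414 and 716 CPM. Tlr7 in M0 was instead at 260 to 323 CPM in replicate 1 and 295 to 329 CPM in replicate 2, and at 125 to 157 CPM in replicate 5. In M0, replicate 5 was also lowest for Tlr2 (35.7 to 44.1 CPM) and for Tlr9 (22.4 to 26.8 CPM). What the replicate number stands for is not stated, and its part in the levels was not tested beyond the blocked fit. The M0 library of p254I replicate 4 held the highest Cd14, Tlr3, Tlr4, Tlr9 and Tlr13 of all M0 libraries (716, 42.9, 209, 73.2 and 844 CPM), and had the lowest correlation with its own group. The M2 library of the same mouse held the highest Tlr1, Tlr3, Tlr7, Tlr8, Tlr13 and Cd14 of all M2 libraries. It also had the lowest correlation within its group (r = 0.9914). Without this mouse every call of the members against M0 held.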

How the data were processed

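Stranded poly(A) RNA libraries of 45 cultures (9 groups of 5) were sequenced as single 50-base reads. The submitters' processing notes name FastQC, Trim Galore, HISAT2, limma and mm10, while the series' design text names Cutadapt and STAR; the counting tool and its use of strand are not given in the sources used here. The authors deposited counts, unnormalized reads per Ensembl gene, and a CPM table of 11900 genes, in which the authors scaled each count to its library total over those genes. CPM multiplied back gave the deposited count within 0.01 reads for 100% of values, and those recovered reads were fitted as an alternative chosen after seeing the data (9362 genes called for M1 against M0).

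Counts were fitted in R 4.3.3 with edgeR 4.0.16 (filterByExpr over the 9 groups, TMM factors 0.939 to 1.10, robust glmQLFit, no block). A gene was called where its p, adjusted by Benjamini and Hochberg over all 12905 genes tested, was under 0.05. Intervals are 95% intervals of the fit and cover the spread between libraries only. Polarizations were averaged over genotypes and genotypes over polarizations. Cultures of the same mouse enter this fit as if unrelated. Their deviations from the group means correlated over 0.1 in 38 of 45 pairs (-0.2 to 0.64, median 0.31). Mice were compared by exact permutation, not paired by replicate number, of the mean log2(CPM + 1) over the cultures of each mouse (SciPy 1.17.1). Gene coordinates and exon lengths came from GENCODE (GRCm38). The fits were tested on simulated counts. Alternatives used DESeq2 1.42.0 and limma 3.58.1.

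Named were the 10 members, Tlr5, Tlr11, Tlr12, up to 3 pathway genes per direction with the largest called change, and the 2 genes most correlated with each member; exceptions are marked. The members and lists were chosen with earlier results of these data known. Libraries with the same replicate number deviated together, with correlations over 0.1 in 15 of 15 pairs of genotypes in M0 (0.12 to 0.88) and in M1 (0.29 to 0.87) and in 13 of 15 in M2 (-0.42 to 0.78; 8868 genes), so the number was taken to pair libraries in M0 and M1.
A marker gene is not reported here.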

Additional observations from a re-analysis of the deposited data

Results flagged for a closer look

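Tlr13 was far from its group in 2 libraries. In p254V M0 macrophages, replicate 1 measured 486 CPM while the 4 others lay between 669 and 699 CPM. Replicate 1 was also the lowest M0 library of p254I (534 CPM) and of p284R (589 CPM). Replicate number took 79.9% of the sum of squares of Tlr13 in M0. In p284R M1 macrophages, replicate 5 measured 460 CPM while the others lay between 579 and 601 CPM. In these 2 libraries (p254V M0 and p284R M1) the gap to the next library was divided by the range of the group. The ratios, 0.859 and 0.843, exceeded Dixon's 95% critical value for 5 samples (0.71). Among the 90 groups of 5 libraries tested this way, chance alone gives about 1 in 20, which is more than the 2 found.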

How the results depend on the processing

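The number of members called equalled that reported, or was 1 lower where a call of Tlr7 or Tlr13 was lost, under the 375 alternative values computed, which cover DESeq2's size factors, no low-count filter, at least 10 counts in every library, the DESeq2 Wald test, limma-voom, blocks for the replicate number or the mouse, only the libraries compared, recovered reads and each mouse left out. With the replicate block, 10 of 10 members were called for M1 against M0, 9 of 10 for M2 against M0 and 0 in each genotype comparison, and the calls over all genes went from 9982 to 10397 for M1 against M0. The block changed no other call of a member. Of 720 alternative log2 fold changes between polarizations, 711 kept direction and call and 8 lost the call, namely the 7 of Tlr7 between M1 and M2 and the 1 of Tlr13 in M1 given above; the remaining 1 was an uncalled value that changed sign. Of 3030 for genotypes, 125 were uncalled values that changed sign or became 0.00, and the cause was not tested. Counts over all genes moved by over 1.5 times in 45 of 375 values, all of them genotype comparisons: p284R against p254I on average gave 2 genes, 11 with the DESeq2 Wald test, 7 with the replicate block and 2 to 19 with a mouse left out, and within M1 34 genes, 11 with limma-voom, 64 with DESeq2, 1 with only the libraries compared and 0 to 109 with a mouse left out. p254V against p254I on average gave 2 genes, 5 with DESeq2, 0 with limma-voom and 1 to 4 with a mouse left out, and p284R against p254V gave 0, or 7 without p284R replicate 1; the other genotype counts stayed between 0 and 3. The order of members moved in 15 of 30 places when CPM was not divided by exon length.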
